A study of Rattus norvegicus with 24 samples.

Results

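The microRNA miR-210-3p was followed across the lungs of 24 Fischer-344 rats that breathed filtered clean air or hexanal, an aldehyde found in indoor air. It was taken by its name, rno-miR-210-3p, as 1 of the 719 rat miRNAs on the array. It had been picked from a list of inflammation and stress miRNAs because it ranked first there by its p for any dose in these same arrays. Its differences between doses are therefore given as a description, without a test. Tests were kept for sex, for the interaction of dose and sex and for the slide that carried the array. The choice did not use these. Correlations with other miRNAs also carry a p, but differences between doses enter it, so it is not free of the choice.

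The 4 groups were a control in filtered clean air and hexanal at 600 ppm, 1000 ppm and 1500 ppm. Each held 6 rats, 3 males and 3 females, aged 7 to 8 weeks, exposed for 4 h a day on 5 days a week for 5 weeks. The labels name the doses in ppm, while their protocol text gives the same figures in mg/m3, so ppm is used here as the name of a dose. Total RNA of lung tissue from each rat went on its own single-colour array, and p-values measure the spread between rats. Whole lung holds many cell types, and a change in the number of cells of a type cannot be told apart from a change in miRNA per cell.

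miR-210-3p is the miRNA most widely known as induced by low oxygen. The transcription factor HIF-1 switches on its gene, and the mature miRNA lowers proteins of mitochondrial respiration such as the iron-sulphur cluster scaffold ISCU, as cells turn from respiration to glycolysis. In the lung it has been studied mainly in the vessels and in pulmonary hypertension.

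RefSeq places the rat gene Mir210 at chr1:205755923-205756032 on the minus strand of the assembly GRCr8. Its hairpin is shown because both arms were on the array. The letters in capitals are miR-210-3p, bases 66 to 87 of 110, and miR-210-5p takes bases 28 to 49.
Mir210 hairpin: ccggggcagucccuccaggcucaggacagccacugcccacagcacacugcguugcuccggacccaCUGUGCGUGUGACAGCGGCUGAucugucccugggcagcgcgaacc

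The mature sequences are printed with the seed, bases 2 to 8, in capitals, since the seed sets which messages a miRNA pairs with. miR-210-3p lies at chr1:205755946-205755967 on the minus strand. miR-3574, from the opposite strand, lies at the same bases and is its exact reverse complement, and miR-147 is shown as the nearest seed.
rno-miR-210-3p: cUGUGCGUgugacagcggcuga
rno-miR-210-5p: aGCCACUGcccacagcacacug
rno-miR-3574: uCAGCCGCugucacacgcacag
rno-miR-147: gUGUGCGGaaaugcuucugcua
Of the 693 mature rat miRNAs in the RefSeq table, miR-210-3p alone had its seed. Only miR-147 had the same bases 2 to 7.

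miR-210-3p was well above background on all 24 arrays. Each array carried 20 spots of 2 probes for it, of which 17 to 20 were free of outlier flags, and all 465 spots used were well above background. None was saturated. Single spots read between 39.5 and 160 units of processed intensity, the Cy3 brightness after background correction. The level used below is the mean over both probes of log2 intensity after each array was scaled to a common 75th percentile. The standard error that the spots gave an array's level was 0.01 to 0.03 on the log2 scale, against an SD between rats of the same dose and sex of 0.14.

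The other products of the locus gave no level. For miR-210-5p, the strand usually discarded from the hairpin, 0 of 459 spots on 24 arrays were well above background, with array means of processed intensity between -1.26 and 4.93. For miR-3574, 0 of 464 spots were, with array means between -1.0 and 1.40. Neither was tested for any difference.

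The level of miR-210-3p by array is given first for the control and 600 ppm groups. Control males 1, 2 and 3 had log2 levels of 5.86, 6.16 and 6.14. Control females 21, 22 and 23 had 6.63, 6.40 and 6.54, all above the 3 males. At 600 ppm, males 6, 7 and 8 had 6.04, 5.96 and 6.07, inside the range of the control males. Females 26, 27 and 28 had 6.76, 6.75 and 6.73, above every control female. The 600 ppm females were the tightest set, with an SD of 0.02 (n = 3).

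At the higher doses males 13, 16, 17 and 18 stood above the other males, and these were the males on slide 2. Males 11 and 12 were on slide 1, with every control and 600 ppm male. At 1000 ppm, males 11 and 12 had log2 levels of 6.17 and 6.03, and male 13 had 6.54. Males 11 and 12 lay at the level of the control males, and male 13 stood above them. Females 31, 32 and 33 had 6.39, 6.61 and 6.65, which overlapped the control females. At 1500 ppm, males 16, 17 and 18 had 6.79, 7.00 and 6.89, above every other male. Females 36, 37 and 38 had 6.57, 6.84 and 6.67, overlapping both the control females and the males of the same dose.

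**Figure D1:**
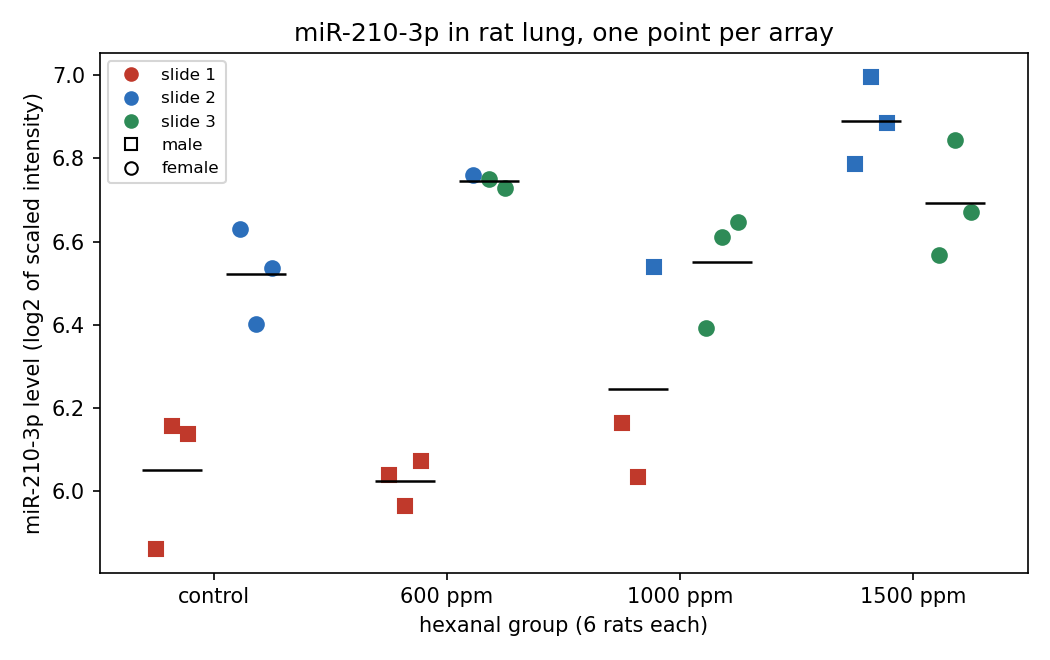
Log2 level of miR-210-3p on each of the 24 arrays by hexanal group, squares for males, circles for females, coloured by slide, with a bar at the mean of each 3 rats. The 8 arrays of slide 1, all males, lie between 5.86 and 6.17 and below the other 16, and the 1500 ppm males lie highest at 6.79 to 7.00.

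Taken by dose group, the level of miR-210-3p was 6.29 ± 0.29 in control, 6.39 ± 0.40 at 600 ppm, 6.40 ± 0.25 at 1000 ppm and 6.79 ± 0.15 at 1500 ppm (log2, SD, n = 6 each). The ranges of all neighbouring groups overlapped. The difference from control was 0.10 at 600 ppm, 0.11 at 1000 ppm and 0.50 at 1500 ppm, each with a standard error of 0.16 on the log2 scale. The last is a ratio of 1.42. With slide in the fit these differences became 0.12 ± 0.08, 0.05 ± 0.08 and 0.25 ± 0.08 (log2, SE). In males alone, 1500 ppm minus control was 0.84 ± 0.11 (log2, SE, a ratio of 1.79), and 0.40 ± 0.17 with slide in the fit. In females it was 0.17 ± 0.11, and 0.19 ± 0.17 with slide in the fit. In each sex that fit took its slide difference from 1 rat on slide 2 set against 2 others, as described below.

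The slides held the groups unevenly, which bears on every comparison. Each of the 3 slides carried 8 arrays. Slide 1 was all male, with every control and 600 ppm male and 2 of those given 1000 ppm. Slide 3 was all female, with 2 rats given 600 ppm and the 6 females of the higher doses. Slide 2 mixed the sexes, with all 3 females in clean air, the remaining 600 ppm female, the remaining 1000 ppm male and every 1500 ppm male. No slide held males of both control and 1500 ppm, and none held females of both. The male difference at 1500 ppm therefore ran wholly from slide 1 to slide 2, and the female one from slide 2 to slide 3.

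Slide by slide, the log2 level of miR-210-3p averaged 6.05 with an SD of 0.10 over the 8 arrays of slide 1, 6.69 with an SD of 0.20 over those of slide 2, and 6.65 with an SD of 0.14 over those of slide 3. The highest array of slide 1 was 0.23 below the lowest of the other 16. With dose and sex in the fit, slide 2 was higher than slide 1 by 0.65 ± 0.11 (log2, SE, limma adjusted p = 7.38e-05) and slide 3 higher by 0.65 ± 0.18 (limma adjusted p = 0.0132). Slides 3 and 2 differed by 0.00, with a 95% interval from -0.22 to 0.23. The test over slides gave F = 21.4 (limma adjusted p = 8.53e-05), and 48.1% of the 283 miRNAs tested passed that threshold for slide, 38.9% for slide 2 against slide 1 and 20.8% for slide 3 against slide 1. This fit assumes no interaction of dose and sex. Control males were all on slide 1 and 1500 ppm males all on slide 2. The slide test and the interaction test below therefore draw on much of the same contrast and are not separate results.

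In 2 cases rats of 1 dose and sex lay on different slides. The 1000 ppm male on slide 2 was 0.44 above the mean of the 2 males of its dose on slide 1 (log2). The 600 ppm female on slide 2 was 0.02 above the mean of the 2 on slide 3. In the fit of all arrays with dose and sex, slides 2 and 1 differed by 0.65 and slides 3 and 2 by 0.00. When each dose and sex has its own mean, these 2 cases alone set the slide differences. With slide in the fit, the male difference at 1500 ppm thus rests on the single 1000 ppm male of slide 2. The female one rests on the single 600 ppm female of slide 2, and the interaction at 1500 ppm on both rats.

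Within single slides and 1 sex, the dose differences of miR-210-3p are also given without a test. Among the males of slide 1, 600 ppm was 0.03 below control and 1000 ppm 0.05 above it on the log2 scale, with overlapping values. On slide 2 the 3 males at 1500 ppm were 0.35 above the single male at 1000 ppm and did not overlap it, and the single female at 600 ppm was 0.24 above the 3 control females. Among the females of slide 3, the 3 at 1000 ppm differed by -0.19 from the 2 at 600 ppm and did not overlap them, while 1500 ppm was 0.14 above 1000 ppm and 0.05 below 600 ppm, overlapping both. On slide 2 the 1500 ppm males were 0.37 above the control females, a difference that joins dose and sex.

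The scaling enters these levels, because the arrays differed in brightness. Before scaling, the miR-210-3p intensity was 84.2 ± 11.0 in control, 88.3 ± 23.6 at 600 ppm, 96.1 ± 16.3 at 1000 ppm and 99.6 ± 5.18 at 1500 ppm (SD, n = 6 each). The unscaled values of slide 1 ran from 53.7 to 103, those of slide 2 from 66.7 to 103 and those of slide 3 from 84.0 to 126, so the slides overlapped. The 75th percentile by which an array was divided averaged 1068 on slide 1, 722 on slide 2 and 858 on slide 3. The 1500 ppm group had the lowest mean percentile, 756 ± 58.8 (SD, n = 6), against 932 ± 254 in control. The 1000 ppm male on slide 2, higher than its peers after scaling, was 0.876 times their mean before it.

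**Figure D2:**
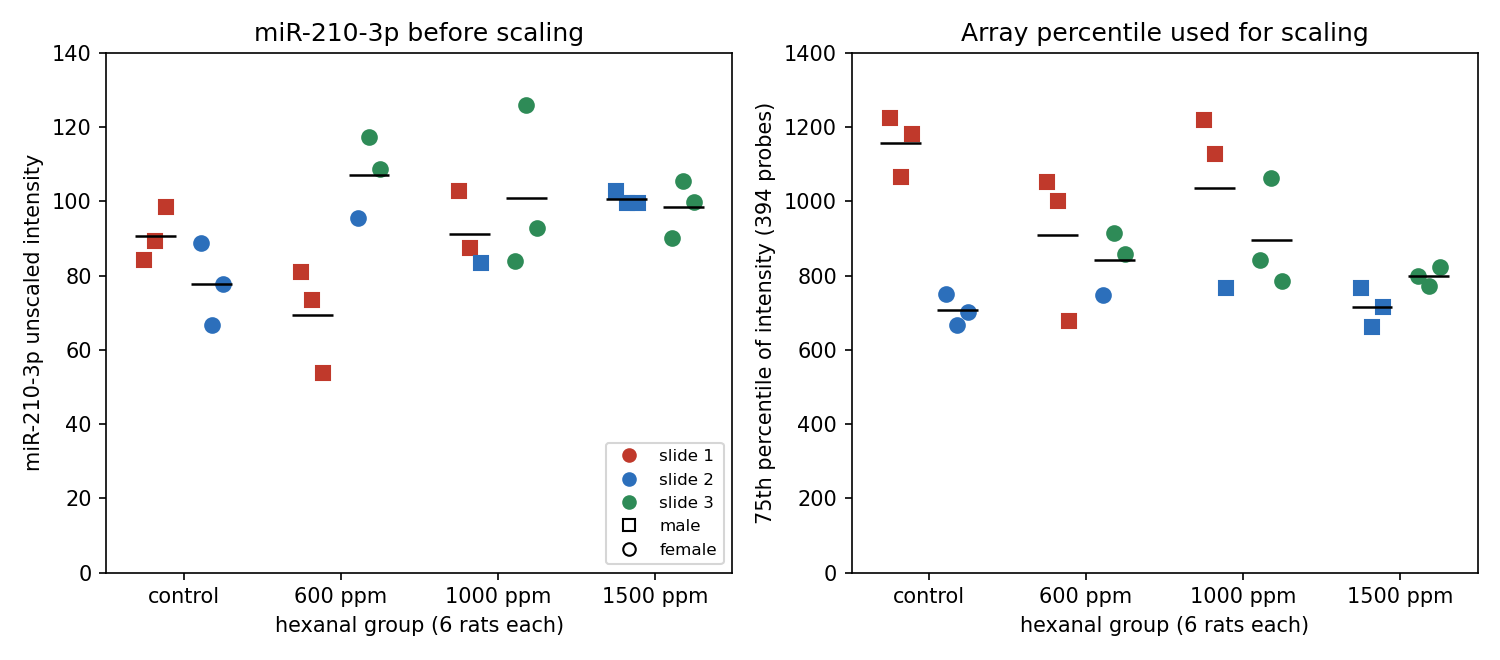
Left, unscaled intensity of miR-210-3p, and right, the 75th percentile of intensity that scaled each array, by hexanal group with 1 point per array (squares males, circles females, colours slides, bars means of 3 rats). Unscaled miR-210-3p overlaps between slides, while the percentile averages 1068 on slide 1, 722 on slide 2 and 858 on slide 3.

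A comparison with the median of all miRNAs tested removes what every miRNA of an array shares. Without scaling, the slide 2 minus slide 1 difference of miR-210-3p was 0.20 where the median miRNA stood at -0.37, a distance of 0.57 on the log2 scale. With the scaling used here it was 0.65 against a median of 0.05, a distance of 0.60. The distance from the median was 0.63 both with quantile normalization and with a percentile over all probes. The raw difference thus moved with the scaling, and its distance from the median stayed between 0.57 and 0.63. Apart from values at the floor, a scaling by 1 number per array shifts all its miRNAs alike. The distance was therefore nearly fixed in advance for all but quantile normalization, and it is no check on the slide difference.

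Males had a lower level of miR-210-3p than females over the whole set. The 12 males ran from 5.86 to 7.00 with a median of 6.15, and the 12 females from 6.39 to 6.84 with a median of 6.64 (log2). The difference with dose in the fit was -0.32 ± 0.09 (male minus female, log2, SE, limma adjusted p = 0.00756), and 43.8% of the 283 miRNAs tested passed the threshold for sex, 27.6% as lower in males. With slide as a block the difference was 0.11 ± 0.13 (limma adjusted p = 0.662), turned in sign, and 3.53% of miRNAs passed. Of the 12 males, 8 were on the slide with the low values.

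Slide 2 was the only one with both sexes. There the 4 males had log2 levels of 6.54 to 7.00 and the 4 females 6.40 to 6.76. Males were higher by 0.22. Dose differed between them, as 3 of the males had 1500 ppm and 3 of the females had clean air. This difference therefore joins sex with the doses by which miR-210-3p was chosen, and it is given without a test. Without slide 1, the sex difference over the other 16 arrays was 0.13 ± 0.08 (log2, SE, limma adjusted p = 0.337). Only 1000 ppm and 1500 ppm then held both sexes, with their males on slide 2 and their females on slide 3. Slide was not in that fit, so sex and slide cannot be told apart in it.

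With slide left out of the fit, males and females differed in their miR-210-3p response to hexanal. The interaction of dose and sex gave F = 11.54 for miR-210-3p (limma adjusted p = 0.00984), a threshold that 25.1% of the 283 miRNAs passed. At 1500 ppm the male response exceeded the female one by 0.67 ± 0.16 (log2, SE, limma adjusted p = 0.00472), a term for which 35.3% of miRNAs passed, 21.2% in this direction. The terms were -0.25 ± 0.16 at 600 ppm (limma adjusted p = 0.648) and 0.17 ± 0.16 at 1000 ppm (limma adjusted p = 0.627).

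With slide as a block, the interaction fell to F = 2.43 (limma adjusted p = 0.765) and the term at 1500 ppm to 0.20 ± 0.24 (log2, SE, limma adjusted p = 0.868). Its 95% interval ran from -0.31 to 0.72, which holds both 0 and the value without slide. The slide differences in this fit came only from the single 1000 ppm male and the single 600 ppm female on slide 2. None of the 283 miRNAs passed for the interaction in that limma fit (0%), while 12 had an unadjusted p below 0.05. With slide as a random block the term was 0.41 ± 0.22 (limma adjusted p = 0.485). Without scaling between arrays the term at 1500 ppm was -0.21 against -0.73 for the median miRNA, and with scaling 0.67 against 0.07, so the distance from the median was 0.53 and 0.59. This distance was also nearly fixed in advance, as for the slide difference.

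**Figure D3:**
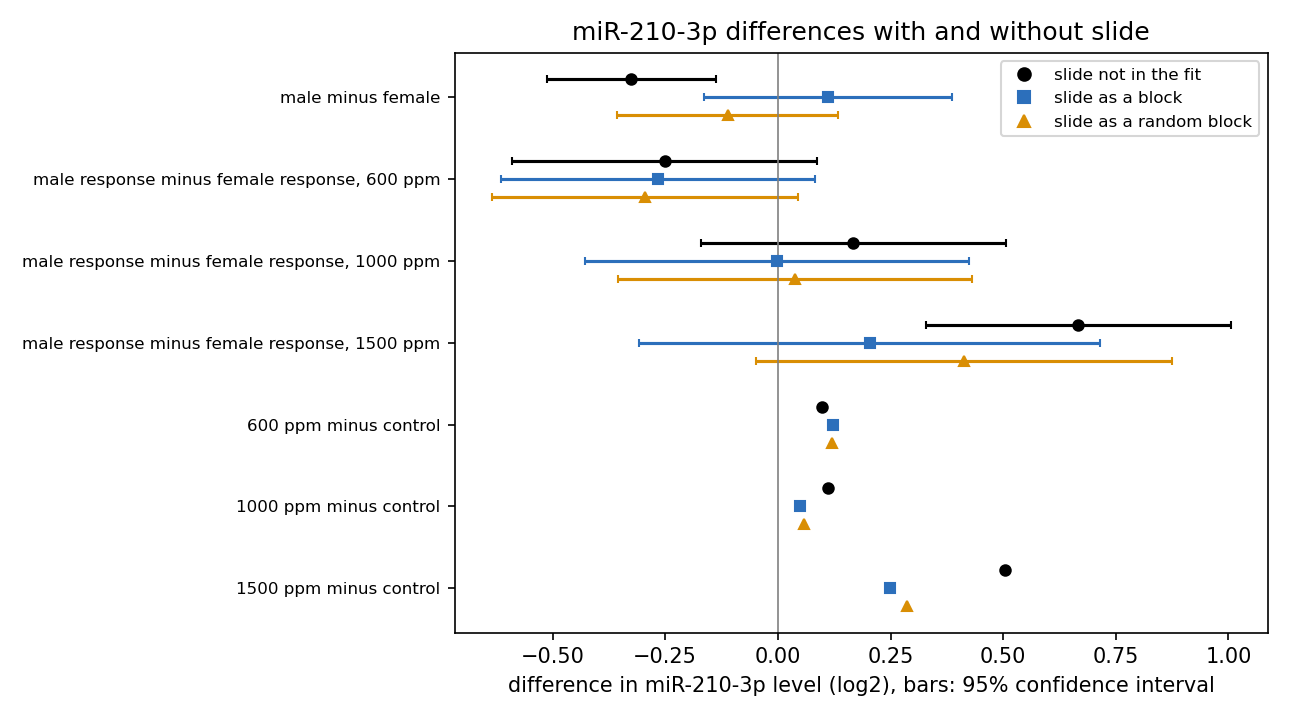
Differences in miR-210-3p level (log2, horizontal axis) with slide left out, with slide as a block, or with it as a random block. Bars on the sex and interaction terms are 95% confidence intervals, and dose differences are points only; the sex difference goes from -0.32 to 0.11 and the 1500 ppm interaction from 0.67 to 0.20 when slide is a block.

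Marker lists of other cell types are read against the 48.1% of all miRNAs that passed for slide and the 25.1% that passed for the interaction. The red blood cell list held 3 names, of which 2, miR-451-5p and miR-144-3p, were on the array. Both passed the threshold for slide and for the interaction. Their summed scaled intensity ran from 2077 to 3149 on slide 1, 1046 to 1865 on slide 2 and 1404 to 2661 on slide 3. Of the endothelial pair, miR-126a-5p passed for slide and for the interaction, and miR-126a-3p did not. The interaction adjusted p in limma with slide as a block was 0.96 for miR-451-5p, 0.906 for miR-144-3p and 0.893 for miR-126a-5p. For slide, the epithelial list had 1 of 5 members past the threshold, the leukocyte list 1 of 4 and the smooth muscle list 1 of 2. The ciliated cell and striated muscle lists had 0 of 3 each for slide, with 1 and 0 at an unadjusted limma p below 0.05. For the interaction, 2 of 5 epithelial, 1 of 4 leukocyte and 1 of 2 smooth muscle members passed. The ciliated cell and striated muscle lists had 0 of 3 each for the interaction, with 1 and 0 unadjusted. With slide as a block, none of these lists had a member past the threshold for the interaction. None of the 7 lists had a member past the limma threshold for any dose, and 1 ciliated cell member had an unadjusted p below 0.05. miR-206-3p and miR-208a-3p, of skeletal and heart muscle, were not well above background on any array. The part of cell makeup in the miR-210-3p values was not tested.

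The 2 probes of miR-210-3p gave the same picture separately. Probe A_26_P00001472 read above A_26_P00001473 by 0.45 to 0.79 on the log2 scale on every array, and across the 24 arrays they rose and fell together (Pearson r = 0.983, given as a description of 2 readings of the same RNA). Slide 2 minus slide 1 was 0.74 by the first probe and 0.57 by the second. The interaction term at 1500 ppm was 0.78 ± 0.17 by the first (log2, SE, limma adjusted p = 0.00191 over 555 probes) and 0.55 ± 0.16 by the second (limma adjusted p = 0.0128). The 1500 ppm minus control difference was 0.53 and 0.48.

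**Figure D4:**
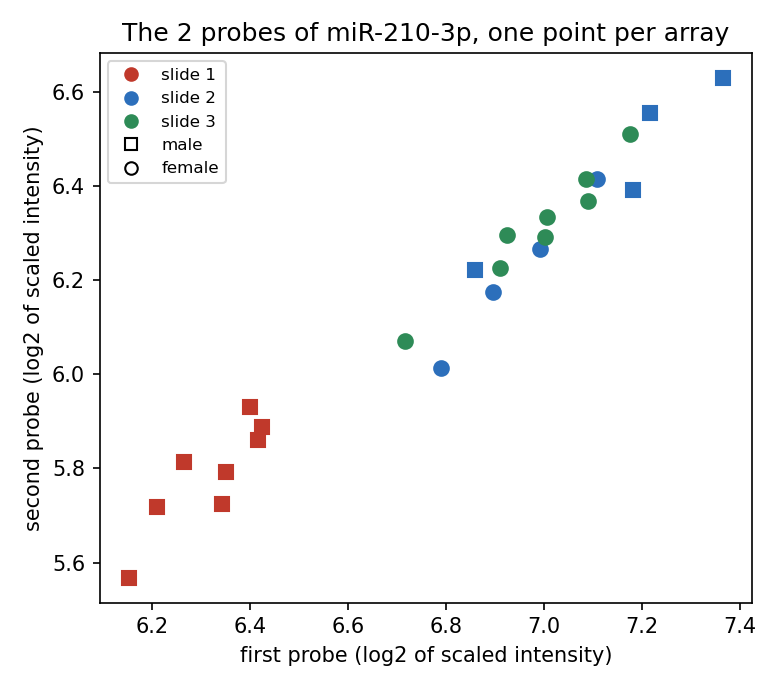
Log2 level of the second probe against the first for miR-210-3p, 1 point per array, squares for males and circles for females, coloured by slide. Both probes place the 8 slide 1 arrays below the other 16.

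The level of miR-210-3p was set beside a list of miRNAs tied to low oxygen. None of the 283 miRNAs tested passed the adjusted limma threshold for any dose. That count includes miR-210-3p, but the choice used this comparison, so for miR-210-3p it is a description only. The list held 26 names, miR-210-3p not among them, of which 25 were on the array and 24 were above background on enough arrays to be tested. For any dose, 0 of 24 passed the adjusted limma threshold and 0 of 24 had an unadjusted p below 0.05, beside 0% and 15 of the 283 miRNAs. At 1500 ppm 0 of 24 passed, with 3 at an unadjusted p below 0.05, where 0% of all miRNAs passed with 26 unadjusted. The median difference of the list was 0.04 at 600 ppm, -0.01 at 1000 ppm and 0.07 at 1500 ppm, beside 0.02, -0.01 and 0.00 for all miRNAs (log2). The list mixes miRNAs described as induced by low oxygen with regulators of HIF, so its median has no single expected direction. miR-21-5p, a widely induced miRNA of injured lung, was 0.19 ± 0.07 above control at 1500 ppm (log2, SE, limma adjusted p = 0.325).

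For sex, 8 of the 24 listed miRNAs passed the limma threshold (33.3%, beside 43.8% of all). Lower in males were miR-181b-5p by -0.34, miR-181a-5p by -0.21, miR-103-3p by -0.21, miR-23b-3p by -0.16, miR-20a-5p by -0.16 and miR-26a-5p by -0.10 on the log2 scale. Higher in males were miR-145-5p, a miRNA of smooth muscle, by 0.40 and miR-322-5p by 0.10. With slide as a block 0 of 24 passed, with 1 at an unadjusted p below 0.05. All 8 kept their direction with the percentile over all probes and with quantile normalization. Without scaling, which moved the median sex difference of all miRNAs from -0.07 to 0.14, 4 of the 8 did.

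For the interaction, 8 of 24 passed (33.3%, beside 25.1% of all): miR-23b-3p, miR-24-3p, miR-27a-3p, miR-103-3p, miR-181b-5p, miR-20a-5p, miR-429 and miR-145-5p. With slide as a block 0 of 24 passed, with 1 at an unadjusted p below 0.05. For slide, 12 of 24 passed (50%, beside 48.1% of all), the same 8 with miR-26a-5p, miR-181a-5p, miR-199a-5p and miR-130a-3p. Between slides 2 and 1, 10 were higher on slide 2, such as miR-181b-5p by 0.55 and miR-103-3p by 0.41, and miR-145-5p was lower by -0.61 (log2). Of these 11, 11 kept their direction with the percentile over all probes and 9 with quantile normalization. Without scaling, which moved the median of all miRNAs from 0.05 to -0.37, 2 of them did.

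To name the miRNAs whose level most followed miR-210-3p, slide means were removed and Pearson r was taken over the 24 arrays for 282 miRNAs. Arrays were permuted within slides. Dose and sex were not removed. Differences between doses, by which miR-210-3p was chosen, therefore enter r and its p, and both are a description of these arrays. The arrays share their scaling, and 150 of the 282 had r above 0, with a median of 0.05. The 5 highest were miR-322-3p (r = 0.69), miR-26a-5p (0.67), miR-30a-5p (0.65), miR-322-5p (0.62) and miR-200c-3p (0.61). None of these 5 passed after adjustment (permutation adjusted p from 0.0931 to 0.204). miR-322-3p and miR-322-5p are the 2 arms of 1 hairpin. miR-26a-5p had r of 0.33, 0.90 and 0.64 on slides 1, 2 and 3, and rho of 0.74 over all arrays.

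The lowest were miR-449c-5p (r = -0.72), miR-130b-3p (-0.59) and miR-295-5p (-0.54). miR-449c-5p belongs to the miR-34 and miR-449 family, which is abundant in ciliated airway cells and needed for motile cilia, and it was the 1 miRNA of 282 (0.355%) past the threshold (permutation p = 2e-05, adjusted p = 0.00564, rho = -0.69 with a permutation p of 8e-05). It was lower where miR-210-3p was higher on all 3 slides, with r of -0.72, -0.73 and -0.78, and r was -0.67 without control female 22 and 1500 ppm male 17, the 2 arrays farthest from their slide mean in miR-210-3p. Its r and p also hold the differences between doses and sexes within slides. miR-449c-5p was dim, well above background on 13 of 24 arrays and at a log2 level of 3.50, the floor, to 4.42. Without control female 22 alone the permutation adjusted p was 0.133, and it was 0.116 without slide 1. It was 0.0667 by total gene signal, 0.245 in the series table (r = -0.27) and 0.748 without scaling (r = -0.0897), and with normexp background correction r turned to 0.94, and to 0.27 with its median parameters.
rno-miR-449c-5p: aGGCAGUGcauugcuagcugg

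**Figure D5:**
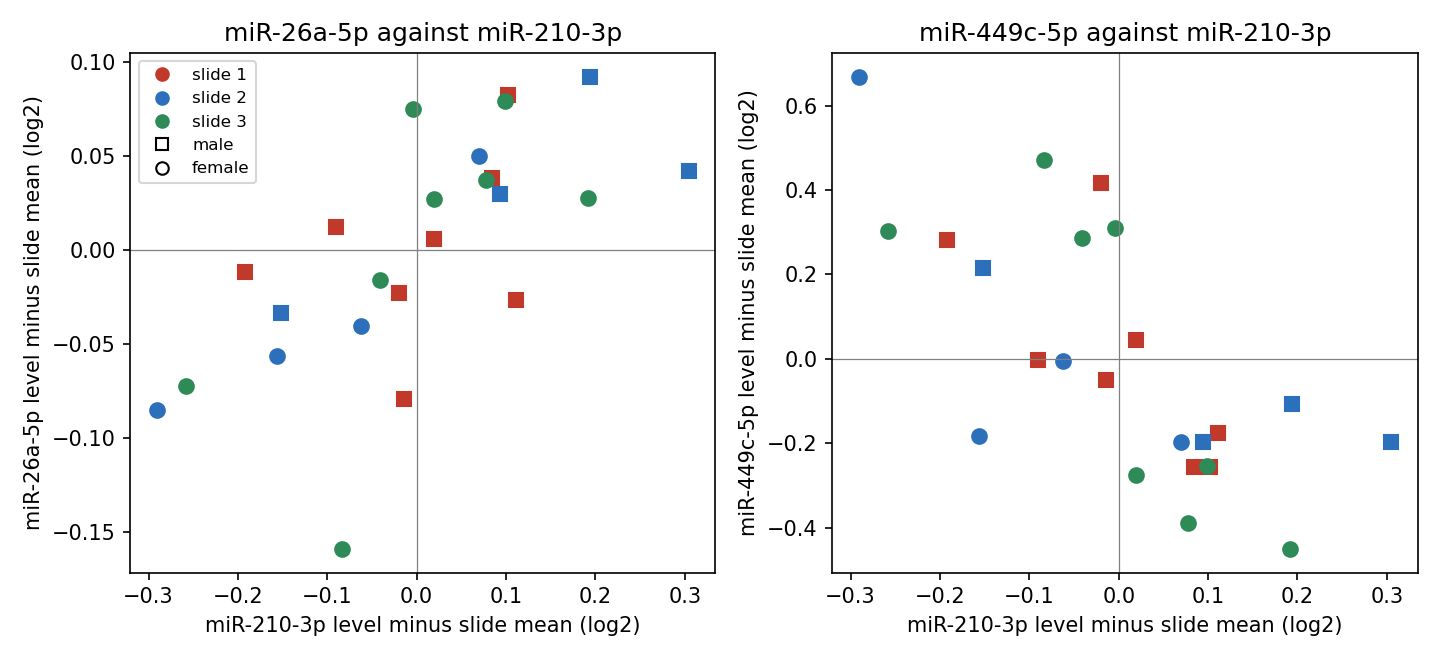
Log2 level minus slide mean of miR-26a-5p (left) and miR-449c-5p (right) against that of miR-210-3p, 1 point per array, squares males, circles females, coloured by slide. miR-26a-5p rises with miR-210-3p (r = 0.67) and miR-449c-5p falls (r = -0.72), the latter with several arrays at the floor.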

How the data were processed

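The authors deposited 1 Agilent Feature Extraction 11.5.1.1 file per array, and per the file headers its processed intensity is Cy3 brightness corrected for background, with no normalization between arrays. The deposited series table of intensity gives the total gene signal of the same arrays, also unscaled, and served as an alternative. The paper that came with the study describes other array types, so no aligner, build or normalization for the miRNA values is given in the sources used here.

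Control spots and spots with outlier flags were left out. Processed intensity was scaled to the 75th percentile over the 394 probes that were above background on every array (target 865), values under a floor of 11.3 (8.59% of kept spots) were set to it, and log2 was taken. Probes with most spots well above background on at least 6 arrays were kept, 555 probes of 283 miRNAs, and a miRNA was the mean of its probes. Arrays showed 221 to 306 miRNAs well above background, and the number of rats limits the precision.

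Tests used limma 3.58.1 (lmFit, eBayes, two-sided) in R 4.3.3 with the package data.table (1.17.8) and Benjamini-Hochberg adjustment over all 283 miRNAs at 0.05. Dose was fitted as group means, sex with dose as a factor, the interaction from the means of the 8 dose and sex cells, and slide with dose and sex. Slide, read from the files, was added as a block or random block (duplicateCorrelation). Likeness used 100000 permutations within slides, with dose and sex left in the levels. The limma fits for sex and for the interaction were tested on simulated data without slide differences. The fits with slide and the permutations were not tested in this way. Figures used matplotlib 3.10.9. Sequences and positions are from RefSeq (GRCr8), where 641 of 719 array names matched, and coordinates of the array design were not used.

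The miRNA, the lists and the tests were chosen with earlier results of these data known. Named miRNAs were miR-210-3p and miR-210-5p, the 5 with the highest and 3 with the lowest r, list members past the threshold for any comparison reported, and miR-21-5p. Marker lists were endothelial, epithelial, ciliated cell, leukocyte, red blood cell, striated muscle and smooth muscle miRNAs. miR-147, miR-3574 and other miRNAs of those lists were named for their sequence or role.

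Alternatives were another percentile, quantile normalization, normexp (offset 50), no or a strict filter, a lower floor, the brightest probe, total gene signal, the series table, eBayes with trend and robust, and each array left out. Normexp with median parameters, no scaling, and leaving out slide 1 were added after seeing the data.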

Additional observations from a re-analysis of the deposited data

Results flagged for a closer look

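The response of miR-210-3p to dose differed between males and females, with F = 11.54 for the interaction (limma adjusted p = 0.00984), and slide and the cells of dose and sex overlap in this design, so that with slide as a block F was 2.43 (limma adjusted p = 0.765). Another 9 named miRNAs, 8 of them named because they passed a comparison of this kind, had an interaction past the limma threshold, which 25.1% of all 283 miRNAs passed. They were miR-429 with F = 14.94, miR-145-5p with 7.903, miR-181b-5p with 7.399, miR-23b-3p with 6.703, miR-103-3p with 6.692, miR-30a-5p with 6.428, miR-24-3p with 6.159, miR-20a-5p with 5.483 and miR-27a-3p with 5.064, with limma adjusted p from 0.00913 to 0.0426. None of these 9 passed with slide as a block (limma adjusted p from 0.765 to 0.909).

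In 2 of 84 sets of 6 arrays, 1 array lay far from the rest, where chance gives about 4.2 at 1 in 20. Both were 1500 ppm female 36. Its gap covered 0.692 of the range of the group for miR-26a-5p, with a log2 level of 13.76 against 13.93 ± 0.03 in the other rats of the group, and 0.811 for miR-449c-5p, with 4.42 against 3.55 ± 0.08 (SD, n = 5). For miR-449c-5p several of those 5 arrays lay at the floor of 3.50, which limits their spread. For miR-210-3p itself no array lay as far from its group.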

How the results depend on the processing

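No paired analysis was possible because each rat number occurs in 1 group only. The 1500 ppm minus control difference of miR-210-3p stayed above 0 in all 15 alternatives (0.24 to 0.56) and with each array left out (0.42 to 0.57). Because miR-210-3p was chosen by its p for any dose in these same arrays, these ranges describe the difference and are no support for it. The differences at 600 ppm and 1000 ppm ran from 0.01 to 0.18 and 0.03 to 0.18 with an array left out. Over the alternatives they ran from 0.03 to 0.32 and -0.03 to 0.19, with 0.32 and -0.03 from normexp, whose fit went astray on control male 3 and 600 ppm female 26. No listed hypoxia miRNA passed for any dose in any alternative (0 to 0 with an array left out).

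The sex difference of miR-210-3p turned to 0.11 with slide as a block, 0.22 on slide 2 alone and 0.13 without slide 1. On slide 2 alone sex ran together with dose, and without slide 1 it ran together with slide. The sex difference was no longer past the threshold at -0.28 with the percentile over all probes, -0.38 with normexp and -0.13 in the series table. The same held at -0.12 without scaling and -0.11 with slide as a random block. The interaction F was 2.29 with normexp, 2.43 with the slide block and 5.15 with the random block, none past the threshold. Its 1500 ppm term was -0.20 in the series table and -0.21 without scaling, turned in sign, and 0.56, 0.20 and 0.41 with normexp, the block and the random block. The slide F lost its call at 1.65 in the series table and 1.495 without scaling. The causes were not tested. With an array left out, these calls held, with -0.37 to -0.30 for sex, F of 8.84 to 18.0 for the interaction, 0.57 to 0.74 for the 1500 ppm term and F of 18.0 to 23.7 for slide.

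Of 283 miRNAs, 124 passed for sex, but 5 with normexp, 77 of 719 without a filter, 52 in the series table, 59 with median normexp parameters, 51 without scaling, 10 with the slide block, 0 with the random block (56 at an unadjusted limma p below 0.05), 20 on slide 2 and 7 without slide 1 (96 to 133 with an array left out). For the interaction 71 passed, but 0 with normexp, 30 by total gene signal, 43 with median normexp parameters, 114 without scaling, 0 with the block and 0 with the random block (12 and 25 unadjusted). With an array left out it was 34 to 102, with 34 without 1500 ppm male 18 and 45 without 1500 ppm female 36. For slide 136 passed, but 221 with normexp and 207 without scaling (127 to 144 with an array left out).

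The miRNAs whose r passed numbered 1, and 69 with the percentile over all probes, 3 with quantile normalization, 216 with normexp, 0 with the strict filter, 2 with the brightest probe, 0 by total gene signal, 167 in the series table, 178 with median normexp parameters, 180 without scaling, 0 without removing slide means (permutations still within slides), 2 by rho, 0 without slide 1 and 0 to 6 with an array left out. Arrays whose loss changed it were control male 1, 600 ppm female 26, 1000 ppm female 31 and 1500 ppm female 36 (2 each), 1500 ppm female 37 (6) and control female 22 (0). Unscaled values share the brightness of the array. With normexp, r turned to -0.71 for miR-26a-5p, -0.56 for miR-30a-5p, -0.50 for miR-322-5p, 0.94 for miR-449c-5p, 0.96 for miR-130b-3p and 0.97 for miR-295-5p. With median parameters it turned to 0.27, 0.52 and 0.55 for the last 3. It turned to 0.23 for miR-295-5p in the series table, to 0.0914 for miR-130b-3p and 0.37 for miR-295-5p without scaling, and to -0.63 for miR-322-3p, 0.39 for miR-130b-3p and 0.50 for miR-295-5p without removing slide means.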
